A study of Mus musculus with 2 samples.

Results

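The CCN genes Ccn1 to Ccn5 (older symbols Cyr61, Ctgf, Nov, Wisp1 and Wisp2) were examined together with Ankrd1 and Amotl2, which are textbook targets of the YAP and TAZ coactivators, and with Yap1, Wwtr1 and Tead1, which encode the factors themselves. These 10 genes were chosen by name, with earlier results of the same libraries known, and the values that chose them are given as a description. All 10 were found in the data by transcript structure, among 10650 loci that reached 1 FPKM (a fragment count normalised for transcript length and library size) in at least 1 library and had a transcript of at least 300 nt. Of the 10, Ccn2, Tead1 and Ankrd1 reached 1 FPKM only in the deficient library, which is how they came through that filter.

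CCN proteins are secreted matricellular proteins that bind integrins and heparan sulfate proteoglycans at the cell surface and act in adhesion, migration and matrix production. They are built from insulin-like growth factor binding, von Willebrand type C, thrombospondin type 1 and C-terminal cystine knot modules, and each module is encoded by an exon of its own. YAP and TAZ (the product of Wwtr1) are coactivators that the Hippo kinases LATS1 and LATS2 hold in the cytoplasm. In the nucleus they bind TEAD factors and switch on genes such as Ccn1, Ccn2 and Ankrd1. In stromal progenitors YAP and TAZ are known to respond to the stiffness of the matrix and to cell shape.

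RNA came from bone marrow mesenchymal stem/progenitor cells of 3-month-old CD-1 mice, kept in DMEM with fetal bovine serum. One library came from cells with the genotype label PPAR-flox and the other from cells labelled PPAR KO, in which the nuclear receptor PPARg is deficient. There was 1 library per group, so no difference has a replicate check, no test was run, and a difference between the genotypes cannot be told apart from a difference between 2 cultures. The sources used here give neither how the deletion was driven nor how many animals gave cells. Pparg itself was at 6.86 FPKM in floxed and 1.39 FPKM in deficient cells. Transcript coverage summed to 1383 and 1728 megabases. Of 13 stromal markers, 10 passed the filter, with the chemokine gene Cxcl12 at 60.4 FPKM in the floxed and 318 FPKM in the deficient library, the collagen gene Col1a1 at 173 and 191 FPKM and Pdgfrb at 21.8 and 74.0 FPKM, while Thy1, Eng and Lepr stayed under 1 FPKM in both libraries. No leukocyte or endothelial marker and no erythroid or megakaryocyte marker passed it. The summed level of the 10 leukocyte markers was 0.73 FPKM in the floxed and 0.55 FPKM in the deficient library, and Ptprc was listed at 0 in both. The 8 adipocyte markers summed to 204 and 15.6 FPKM, and 3 of them passed the filter. Most of the floxed sum was Lpl (176 and 2.78 FPKM). Adipoq was at 9.87 and 0.10 FPKM, and Fabp4 at 17.6 and 12.7 FPKM, where the bounds of the main transcript overlapped. Plin1, Retn, Lep, Cidec and Cfd stayed under 1 FPKM in both libraries.

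Promoters of some of the members are shown first, because YAP and TAZ reach DNA through TEAD factors, whose core motif reads GGAATG. On the opposite strand the motif reads CATTCC. RefSeq promoters (build GRCm38.p6, 250 bases before to 50 after the start of transcription) were at hand for 5 members: Ccn1, Ankrd1, Amotl2, Yap1 and Wwtr1. The other 5, Ccn2 to Ccn5 and Tead1, had no entry, so their promoters are not described. The promoters below lie at chr3:145649936-145650235 (minus strand, Ccn1), chr19:36119795-36120094 (minus strand, Ankrd1), chr9:102717554-102717853 (plus strand, Amotl2) and chr9:8004547-8004846 (minus strand, Yap1). They are written 5′ to 3′ on the strand of the gene, with GGAATG or CATTCC in capitals.
Ccn1: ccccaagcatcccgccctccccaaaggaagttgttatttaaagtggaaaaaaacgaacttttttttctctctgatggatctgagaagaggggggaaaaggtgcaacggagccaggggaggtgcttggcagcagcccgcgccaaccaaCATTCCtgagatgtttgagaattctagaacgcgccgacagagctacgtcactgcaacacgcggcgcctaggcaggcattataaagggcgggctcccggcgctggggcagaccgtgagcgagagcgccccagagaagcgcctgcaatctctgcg
Ankrd1: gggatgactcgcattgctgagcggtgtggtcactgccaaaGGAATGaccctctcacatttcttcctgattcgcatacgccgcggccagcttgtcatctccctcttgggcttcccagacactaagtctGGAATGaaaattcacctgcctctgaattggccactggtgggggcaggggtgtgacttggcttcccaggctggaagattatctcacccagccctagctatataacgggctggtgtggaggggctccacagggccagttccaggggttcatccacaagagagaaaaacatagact
Amotl2: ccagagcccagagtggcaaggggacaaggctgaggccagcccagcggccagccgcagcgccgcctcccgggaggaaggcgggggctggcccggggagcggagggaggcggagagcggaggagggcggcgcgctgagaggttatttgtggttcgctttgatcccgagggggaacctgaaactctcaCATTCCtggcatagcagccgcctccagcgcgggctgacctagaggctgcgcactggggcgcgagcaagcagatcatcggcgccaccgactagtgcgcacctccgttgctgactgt
Yap1: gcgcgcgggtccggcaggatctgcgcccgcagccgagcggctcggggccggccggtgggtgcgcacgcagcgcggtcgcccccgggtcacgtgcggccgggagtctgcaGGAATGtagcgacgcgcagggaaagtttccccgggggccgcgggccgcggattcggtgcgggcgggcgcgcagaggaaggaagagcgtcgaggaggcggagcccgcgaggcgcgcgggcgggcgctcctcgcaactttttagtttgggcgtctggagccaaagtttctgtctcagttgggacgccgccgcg
Every one of the 5 members with a promoter entry held GGAATG on at least 1 strand, where 14.7% of all 32851 promoters of this length did. In Ccn1 the motif ran from -103 to -98, counted from the first transcribed base, and in Amotl2 from -65 to -60, both as CATTCC. Ankrd1 had it at -210 to -205 and again at -123 to -118. Yap1 held it at -141 to -136, and Wwtr1 held 1 match, which lay at -136 to -131 from one start site and at -170 to -165 from the other. None of the 5 held the AP-1 motif TGANTCA, present in 7.81% of all promoters, or a CArG box, the motif of serum response factor, present in 1.63%. The motifs were searched on both strands and do not overlap each other in these windows. A match of these letters is a description of the window. Among these 5 genes it was shared by Ccn1, Ankrd1 and Amotl2, which were higher in the deficient library, and by Yap1 and Wwtr1, which were close to the median locus. For Amotl2, however, 89.3% of the floxed and 85.8% of the deficient value lay on a transcript that starts inside the gene, away from this window.

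Ankrd1, Amotl2 and 3 of the 5 CCN genes were higher in the deficient library beyond the shift shared by most loci. Yap1 and Wwtr1 were close to the median locus, and Tead1 was above it but within 2-fold. All 10 members had a higher FPKM in the deficient library, but so did most loci: the middle of all kept loci was shifted upward by 0.86 log2 units (1.81-fold). Folds below are therefore log2 of FPKM plus 1, deficient over floxed, relative to that median locus, and FPKM values are as deposited. On that scale 5 members were at least 2-fold higher (Ankrd1, Ccn5, Ccn2, Ccn1 and Amotl2) and 0 were lower, where 10.3% of all kept loci passed the 2-fold line upward and 11.6% downward. As deposited, 8 members were at least 2-fold higher and 0 lower, against 42% and 4.57% of all kept loci. Since the same contrast chose the members, these counts describe them and support nothing. Amotl2 at 1.23 was the lowest of the 5 above the 2-fold line, and Ccn3 at 0.70 the highest below it. The median relative fold of the 10 was 0.97. In bulk RNA, more cells of a kind and more RNA per cell cannot be told apart.

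**Figure D1:**
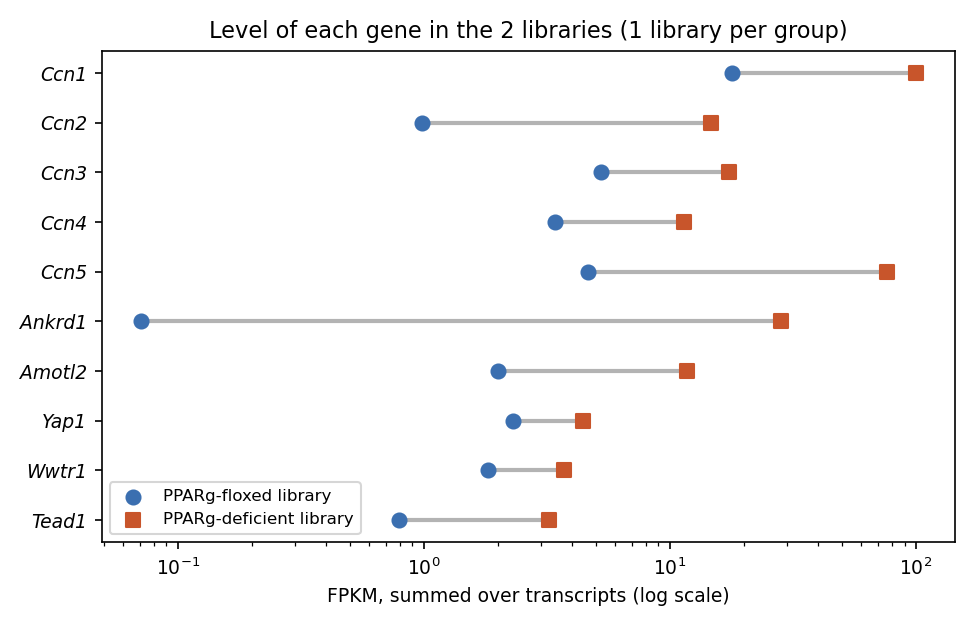
FPKM of each of the 10 genes (log axis), summed over transcripts, in the PPARg-floxed library (circles) and the PPARg-deficient library (squares), 1 library each. Ankrd1 has the widest gap, from 0.07 to 28.3 FPKM, and Yap1 and Wwtr1 have the narrowest, while Ccn1 is the most abundant of the 10 in both libraries.

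**Figure D2:**
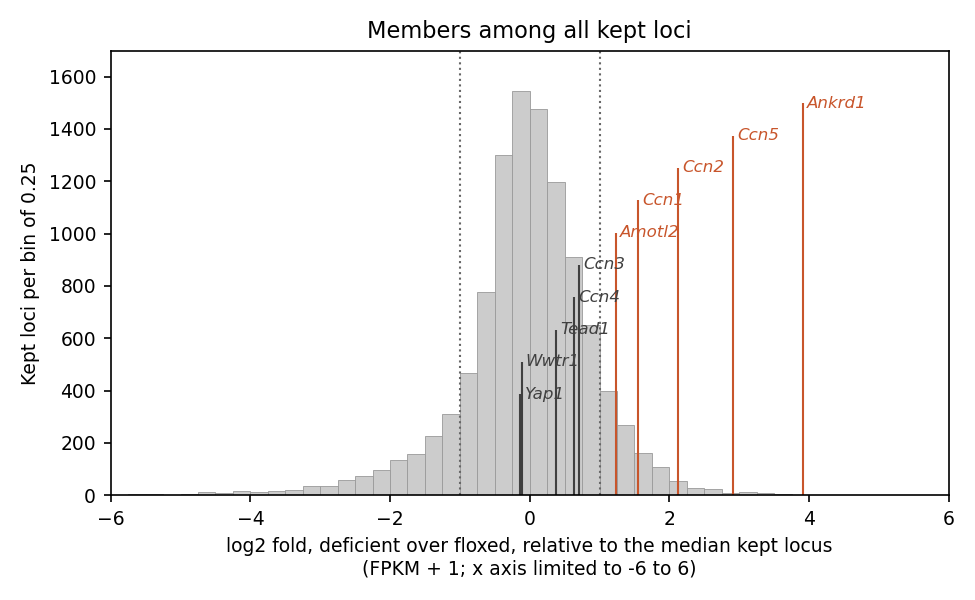
Histogram of the relative log2 fold of the 10650 kept loci (bars, bins of 0.25), with a vertical line at the fold of each member and dotted lines at 2-fold. Yap1 and Wwtr1 stand beside the centre of the distribution and Ccn2, Ccn5 and Ankrd1 in its right tail.

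Ccn1, which encodes an integrin-binding matricellular protein and is an immediate early gene of growth factor signals, was the most abundant member in both libraries. It lay on chromosome 3 from 145309935 to 145312949 (mm9, minus strand) as a single transcript of 5 exons. Its level was 18.0 FPKM in floxed cells, with deposited bounds of 15.7 and 20.3, and 100.2 FPKM in deficient cells (95.0 to 105). The bounds, which describe the estimate within 1 library, did not overlap, and the relative log2 fold was 1.56 (2.41 as deposited). Its whole signal fell on the annotated structure, with a mean coverage of 25.8 and 151 reads per base. Of the members at least 2-fold higher, Ccn1 and Ankrd1 were each assembled as 1 transcript.

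Ccn2 encodes connective tissue growth factor, a matricellular protein of fibrosis and cartilage. Its level was 0.99 FPKM in floxed and 14.7 FPKM in deficient cells (chromosome 10, 24315248 to 24318490, mm9, plus strand), a relative fold of 2.12. Its signal was split over 2 assembled transcripts that share a start. The transcript of 5 exons, whose introns and internal exons match the annotated gene, was at 0.99 FPKM (0.45 to 1.52) and 5.70 FPKM (4.44 to 6.97). The other, of 2 exons and 914 nt, had about 0 in floxed cells (upper bound 0.31). In deficient cells it was at 8.96 FPKM (5.95 to 12.0) and held 61.1% of the Ccn2 value. This other form matched no annotated structure, and whether it is a real transcript cannot be settled without reads. That short form joins 103 bases of the first exon to 811 bases of the last exon over a gap of 2329 bases. Its first exon ends 244 bases before the end of the full first exon, of which the last 63 bases are annotated as coding, and its second begins 559 bases into the last exon, of which the first 294 are coding, so it holds 0 annotated coding bases. With only the transcripts that match the annotated structure, an alternative chosen after seeing the data, the relative fold of Ccn2 was 0.91 and under 2-fold. Both forms were higher in the deficient library with bounds that did not overlap. The 0.91 was taken with the pseudocount of 1 FPKM, which is about the floxed level of the matched form. That fold therefore depends on the pseudocount, and other pseudocounts were not tried for the matched form alone.

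Ccn3 and Ccn4 were higher as deposited and less than 2-fold above the median locus. Ccn3, a CCN protein known for restraining proliferation, was at 5.26 FPKM in the floxed and 17.5 FPKM in the deficient library (chromosome 15, 54577483 to 54585728, mm9), a relative fold of 0.70. Nearly all of it lay on 1 transcript of 5 exons, at 5.26 (4.22 to 6.29) and 16.5 FPKM (14.6 to 18.3). Ccn4, a Wnt-inducible member that acts on bone-forming cells, was at 3.42 and 11.5 FPKM (chromosome 15, 66722955 to 66754769, mm9), a relative fold of 0.64. Within Ccn4 the 3 transcripts, which differ in the length of exon 2, did not move together. The form with the full exon of 280 bases was at 1.28 FPKM (0.85 to 1.72) in the floxed and 6.65 FPKM (5.75 to 7.56) in the deficient library. The form with 257 bases was at 0.81 (0.45 to 1.17) and 4.80 FPKM (3.98 to 5.61). The form with 88 bases, which leaves out 192 bases of that exon, went the other way, from 1.32 FPKM (0.87 to 1.78) to about 0 (upper bound 0.05). It held 38.7% of the Ccn4 value in the floxed library. Of the 25 assembled transcripts of the 10 genes, this 1 was lower in the deficient library as deposited with bounds that did not overlap, 13 were higher and 11 overlapped. By the same rule 42.6% of the 26065 assembled transcripts of kept loci were higher and 10.2% lower, so a transcript with a lower level is not particular to these genes.

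Ccn5 encodes the short CCN protein, which lacks the C-terminal cystine knot module. It was at 4.64 FPKM in the floxed and 76.2 FPKM in the deficient library (chromosome 2, 163646570 to 163658883, mm9, plus strand), a relative fold of 2.92, higher than that of 99.6% of kept loci. By FPKM it stood directly behind Ccn1 in the deficient library. In the floxed library the whole value lay on an assembled transcript of 3 exons, at 4.64 FPKM (3.12 to 6.16). It joins exon 2 to the last exon and leaves out exons 3 and 4. This form matched no annotated structure, and whether it is a real transcript cannot be settled without reads. In the deficient library that form was at 47.4 FPKM (40.0 to 54.8), and the full transcript of 5 exons, at about 0 in the floxed library (upper bound 0.14), was at 28.8 FPKM (22.9 to 34.8). The full form thus held 37.8% of the Ccn5 value in the deficient library. Exons 3 and 4 have 217 and 258 bases, all annotated as coding, and their sum of 475 leaves 1 when divided by 3, so leaving them out shifts the reading frame. The junctions that tell the forms apart are shown because the difference in Ccn5 rests on both. Each line gives the last 30 bases of exon 2 (chr2:163821289-163821381 in GRCm38, plus strand) in lower case and the first 30 bases of the following exon in capitals, read from the GENCODE M21 transcript. Exon 3 lies at chr2:163825141-163825357 and exon 5 at chr2:163832217-163833146.
Exon 2 to exon 3, full form: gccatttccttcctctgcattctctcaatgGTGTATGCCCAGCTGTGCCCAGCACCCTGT
Exon 2 to exon 5, form of 3 exons: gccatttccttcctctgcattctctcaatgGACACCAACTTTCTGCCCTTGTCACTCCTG
Each of these forms was higher in the deficient library with bounds that did not overlap. With only transcripts of annotated structure, which leaves out the form of 3 exons, the relative fold was 4.05. The floxed level was then about 0, so the size of that fold depends on the pseudocount of 1 FPKM. With only the most abundant transcript the relative fold was 2.25. Ccn6, the remaining member of the family, was listed at 0 in both libraries. The 5 CCN genes together summed to 32.3 FPKM in the floxed and 220.0 FPKM in the deficient library, of which Ccn1 made up 55.7% and 45.5%.

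**Figure D3:**
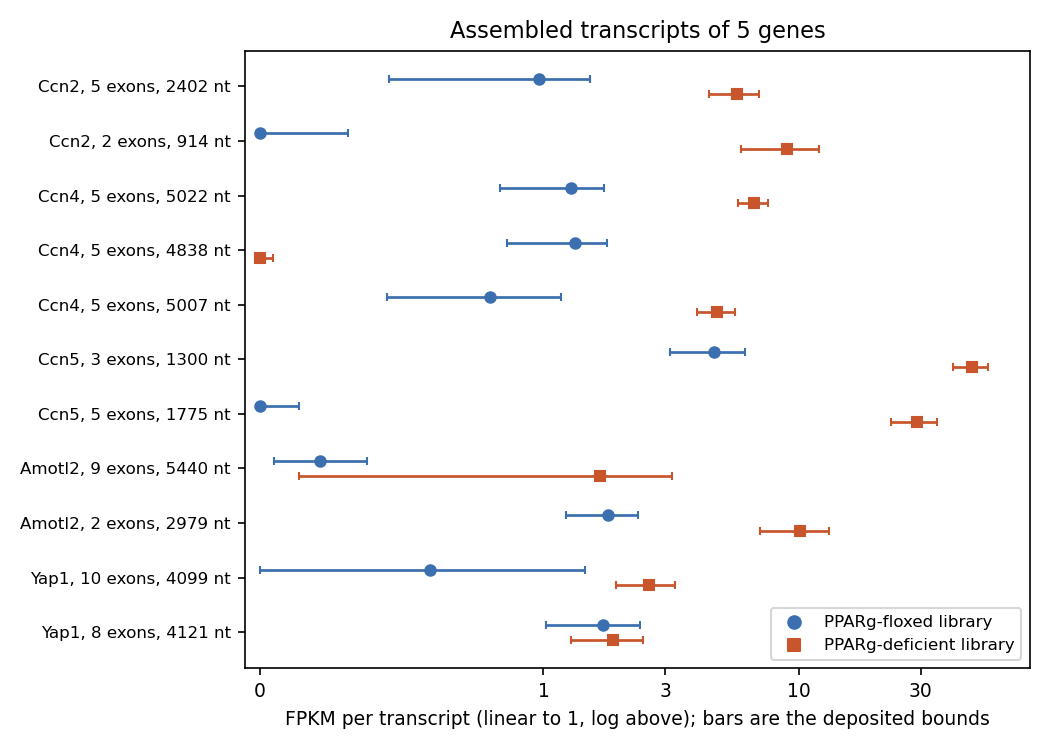
FPKM of each assembled transcript of Ccn2, Ccn4, Ccn5, Amotl2 and Yap1 with at least 0.1 FPKM in a library (linear to 1 FPKM, log above), in the floxed (circles) and deficient library (squares), with the deposited bounds as bars. The Ccn4 form of 4838 nt is the only one whose square lies left of its circle, and the Ccn2 form of 914 nt and the Ccn5 form of 1775 nt sit at about 0 in the floxed library.

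Ankrd1 encodes an ankyrin repeat protein of the nucleus and the sarcomere, best known from heart muscle and widely used as a readout of YAP and TAZ. Its level was 0.07 FPKM in floxed cells (0 to 0.21) and 28.3 FPKM in deficient cells (25.5 to 31.1), on 1 transcript of 9 exons (chromosome 19, 36186455 to 36194334, mm9, minus strand). From near absence it came to stand behind only Ccn1 and Ccn5 by FPKM, and the bounds did not overlap. Its relative fold was 3.91, above 99.8% of kept loci. The floxed value rests on a mean coverage of 0.13 reads per base over a transcript of 1765 nt, so the size of the fold depends on the pseudocount: it was 6.24 with 0.1 FPKM and 2.28 with 5 FPKM. Of 12 striated muscle markers 6 were listed at 0 in both libraries, among them Myh6, Actn2 and Myog, and the list summed to 0.23 and 2.71 FPKM. In the deficient library most of that sum was Tnnt2, the cardiac troponin T gene, at 2.19 FPKM, and it was listed at 0 in the floxed library. Its part in the Ankrd1 difference was not tested. The related genes Ankrd2 (listed at 0 in both) and Ankrd23 (0.18 and 0.71 FPKM) stayed under 1 FPKM. Of 8 smooth muscle and pericyte markers 3 passed the filter, Acta2 with 2154 and 4656 FPKM (0.25), Tagln with 292 and 576 FPKM (0.12) and Cnn1 with 8.47 and 14.5 FPKM (-0.15). The other 5, Cspg4, Smtn, Rgs5, Myh11 and Des, stayed under 1 FPKM in both libraries.

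Amotl2 encodes an angiomotin-like scaffold that binds YAP and keeps it out of the nucleus, and it is itself a YAP target. It was at 1.997 FPKM in the floxed and 11.8 FPKM in the deficient library (chromosome 9, 102620134 to 102636318, mm9, plus strand), a relative fold of 1.23. Most of this came from a transcript of 2 exons at the 3′ end of the gene, at 1.78 FPKM (1.22 to 2.34) and 10.1 FPKM (7.05 to 13.1), which held 89.3% and 85.8% of the value. That transcript starts 461 bases upstream of exon 9 and holds 233 of the 2316 annotated coding bases. It matched no annotated structure, and whether it is a real transcript cannot be settled without reads. The long transcript of 9 exons had 0.21 (0.05 to 0.38) and 1.67 FPKM (0.14 to 3.20), with overlapping bounds. It matches the annotated gene over part of its length and ends in an exon of 3196 bases. The transcript of 10 exons, the only one to match a whole annotated structure, was at about 0 in both libraries (upper bounds 0.055 and 0.054). The higher value of Amotl2 was therefore measured mainly over its 3′ end. With only transcripts of matched structure its relative fold was 0.29, and with a pseudocount of 5 FPKM it was 0.83, both under 2-fold. The 0.29 was taken with the pseudocount of 1 FPKM on a floxed level of 0.21 FPKM, which holds the fold down. It therefore does not show that the long form differed less than the short one.

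The coactivators and their DNA-binding partner stayed within 2-fold of the median locus. Wwtr1, which encodes TAZ, was at 1.83 FPKM in the floxed and 3.73 FPKM in the deficient library (chromosome 3, 57259566 to 57379832, mm9, minus strand), a relative fold of -0.12 and 0.74 as deposited. Almost all of it lay on 1 transcript of 7 exons, at 1.83 (1.40 to 2.25) and 3.73 FPKM (3.13 to 4.33). Yap1 was at 2.30 and 4.46 FPKM (chromosome 9, 7931856 to 8004596, mm9, minus strand), a relative fold of -0.14 and 0.72 as deposited. Thus the direction of both coactivators depends on the scale, since both were below the median locus and above their own floxed level. Tead1, which encodes a TEAD DNA-binding factor, was at 0.80 and 3.25 FPKM (chromosome 7, 119822834 to 120050324, mm9, plus strand), a relative fold of 0.38. Tead1 was at 0.76 with a pseudocount of 0.1 FPKM and at 1.24 as deposited. Its most abundant transcript, of 11 exons and starting inside the gene at 119902898, was at 0.57 (0.38 to 0.76) and 2.80 FPKM (2.42 to 3.18). The transcript of 14 exons from the first start site had 0.23 (0.10 to 0.36) and 0.44 FPKM (0.26 to 0.63), with overlapping bounds. The share of Tead1 held by the internal start was 71.3% in the floxed and 86.3% in the deficient library.

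Yap1 differed more in which transcript was listed than in its total. The transcript of 10 exons, which includes an alternative exon of 48 bases, was at 0.60 FPKM (0 to 1.45) in the floxed and 2.59 FPKM (1.92 to 3.26) in the deficient library. The transcript of 8 exons without that exon had 1.70 (1.02 to 2.38) and 1.87 FPKM (1.28 to 2.45), with overlapping bounds. Forms with the 48-base exon thus made up 26.1% of the Yap1 value in the floxed and 58.1% in the deficient library. Nearly all of that was the transcript of 10 exons, which matches the annotated gene over only part of its length. The transcript of 9 exons, which holds the exon and matches a whole annotated structure, was at about 0 in both libraries (upper bounds 0.056 and 0.054). The exon is known to insert residues into the activation domain of YAP. It lies at chr9:7950492-7950539 in GRCm38 (minus strand) and is printed in capitals between 15 bases of each neighbouring exon, because the form that holds it was the one higher in the deficient library. The exon is not the only difference between the forms. The form of 10 exons begins with exons of 144 and 123 bases where the other has 1 exon of 482. Annotated coding begins after 206 bases of that exon, in the gap between the exons of 144 and 123 bases. The form of 10 exons therefore lacks the annotated start of coding. The last exons of the 2 forms have 2877 and 2732 bases.
Yap1 48-base exon: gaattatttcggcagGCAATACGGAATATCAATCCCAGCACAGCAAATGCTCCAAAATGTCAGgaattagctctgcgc
With only the transcript most abundant over both libraries together, the relative fold of Yap1 was -0.77. That transcript is the one of 8 exons with 482 bases in the first, which was the less abundant of the pair in the deficient library.

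Other genes of the pathway were taken from lists chosen with earlier results of these data known, and are described by counts. Of 10 genes of coactivators, TEAD and VGLL factors, 5 passed the filter, with 1 at least 2-fold higher and 1 lower. With a pseudocount of 5 FPKM 0 were called either way. Among all kept loci 10.3% were higher and 11.6% lower, so a list this small cannot be set apart from the rest. As deposited 2 were higher and 0 lower, where 42% and 4.57% of all kept loci were. Tead2, Tead3 and Tead4 stayed under 1 FPKM in both libraries. Vgll3, which encodes a TEAD cofactor, was at 1.75 FPKM in the floxed and 12.0 FPKM in the deficient library (1.38), and Vgll4, which encodes a competitor of YAP for TEAD binding, was at 8.97 and 6.07 FPKM (-1.35, and -0.50 as deposited). The median of these 5 was -0.12, where the median of all kept loci is 0 on this scale.

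Of 26 genes of the Hippo cascade and its upstream regulators 20 passed the filter, 1 of them at least 2-fold higher (Amotl2 itself) and 2 lower, with a median of -0.27. Of all kept loci 10.3% were higher, 11.6% lower and 78.1% within 2-fold, so these counts are near the background. As deposited 4 were higher and 0 lower, where 42% and 4.57% of all kept loci were, and with a pseudocount of 5 FPKM 0 were higher and 0 lower. The kinase gene Lats2, itself a YAP target, was at 2.28 FPKM in the floxed and 9.11 FPKM in the deficient library (0.77), and Lats1 was at 0.94 and 2.24 FPKM (-0.12). Of the other regulators, Frmd6 was at 2.93 and 12.4 FPKM (0.91) and the adaptor gene Sav1 at 6.11 and 5.73 FPKM (-0.94). Amotl1, the angiomotin-like paralogue of Amotl2, was at 36.9 and 26.9 FPKM (-1.30), so the 2 paralogues lay on opposite sides of the median locus. The other gene at least 2-fold lower was Dlg5, at 1.62 and 1.15 FPKM (-1.14), but the bounds of its main transcript overlapped, and 1 gene was lower where bounds also had to lie apart.

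A list of 22 genes known as YAP and TEAD targets had 18 kept members, with 7 at least 2-fold higher and 2 lower, and a median of 0.70. Of all kept loci 10.3% were higher and 11.6% lower, so the count of lower targets is at the background. As deposited 12 were higher and 0 lower, where 42% and 4.57% of all kept loci were. This list holds 4 of the 10 genes above (Ccn1, Ccn2, Ankrd1 and Amotl2), and without them 3 of 14 were higher and 2 lower. The 3 were F3, the tissue factor gene of coagulation (16.3 and 142 FPKM, 2.18), Axl, a receptor tyrosine kinase gene (3.98 and 30.3 FPKM, 1.79), and Gadd45b, a stress response gene with 4.43 FPKM in deficient cells that was listed at 0 in floxed cells. The 2 lower genes were Nt5e, which encodes the surface enzyme CD73 (1.86 and 1.01 FPKM, -1.37), and Tgfb2 (8.08 and 6.63 FPKM, -1.11). Both were at least 2-fold lower only relative to the median locus, with -0.51 and -0.25 as deposited. The bounds of their main transcripts overlapped, and 0 targets were lower where bounds also had to lie apart or with a pseudocount of 5 FPKM. Fjx1 was not matched. Of 18 kept genes 4 reached 1 FPKM in deficient cells only, and the filter on low values is one that favours genes that are higher there.

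Of 14 genes of CCN receptors and coreceptors 9 passed the filter, with 0 at least 2-fold higher, 1 lower and 8 within 2-fold, and a median of -0.28. With 78.1% of all kept loci within 2-fold, 10.3% higher and 11.6% lower, so small a list cannot be set apart from the rest. As deposited 3 were higher and 0 lower, where 42% and 4.57% of all kept loci were. The integrin subunit genes Itgb5 (1.74 and 7.44 FPKM, 0.77) and Itga5 (2.18 and 7.77 FPKM, 0.61) and the endocytic receptor gene Lrp1 (2.002 and 8.71 FPKM, 0.84) were above the median locus. Itgb1, the shared integrin beta subunit, was at 28.2 and 34.7 FPKM (-0.57). Sdc4, a heparan sulfate proteoglycan gene of focal adhesions, was at 88.1 and 71.0 FPKM (-1.17, and -0.31 as deposited), and 0 receptor genes were lower with a pseudocount of 5 FPKM.

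**Figure D4:**
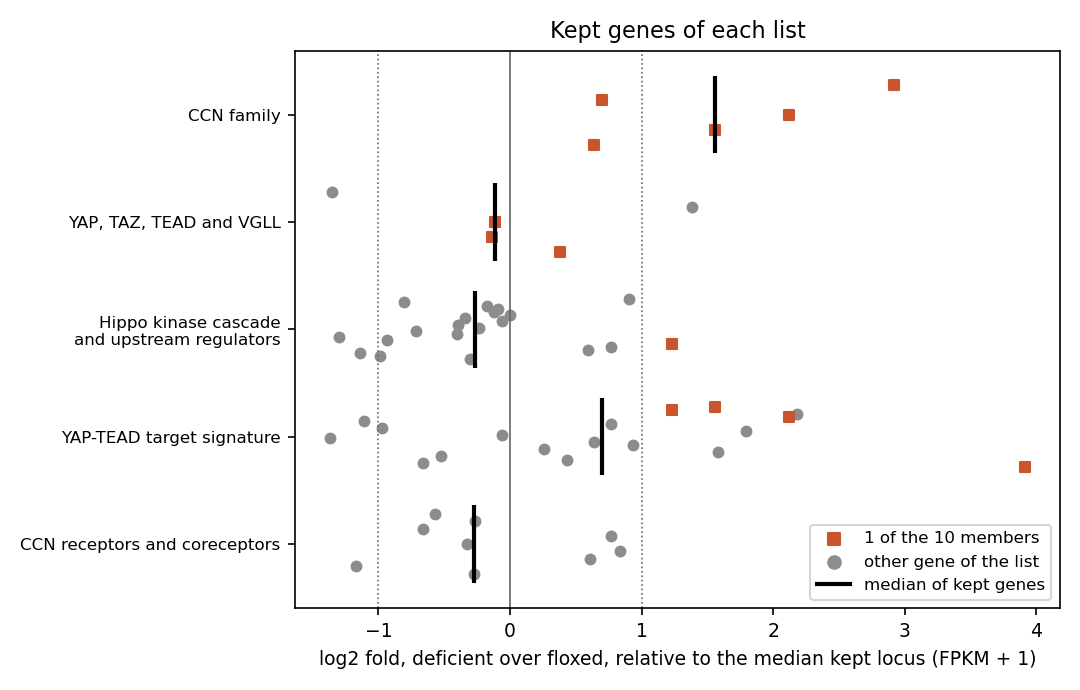
Relative log2 fold of each kept gene (points) in 5 lists, with the 10 members as squares, other genes as grey circles and the list median as a black bar; dotted lines mark 2-fold. Points of the target list run from -1.37 to 3.91, and the medians of the Hippo cascade and receptor genes are -0.27 and -0.28.

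By FPKM, which is scaled by transcript length, the order in the floxed library was Ccn1, Ccn3, Ccn5, Ccn4, Yap1, Amotl2, Wwtr1, Ccn2, Tead1 and Ankrd1. In the deficient library it was Ccn1, Ccn5, Ankrd1, Ccn3, Ccn2, Amotl2, Ccn4, Yap1, Wwtr1 and Tead1. Without replicates, neighbours in these orders cannot be separated by a spread between samples. In the floxed library the bounds of the main Ccn3 transcript overlapped those of the Ccn5 transcript next to it. Among 8486 named kept loci, those nearest to Ccn1 in the pair of log2 values were Snhg1 (18.6 and 99.6 FPKM), Tmem97 (17.5 and 103 FPKM) and Tspo (17.1 and 95.8 FPKM), at distances of 0.05, 0.06 and 0.10. Nearest to Ccn2 were Chchd6 (1.08 and 14.6 FPKM), Acsl5 (0.82 and 14.8 FPKM) and Rab32 (1.13 and 15.7 FPKM), at 0.06, 0.12 and 0.14. This likeness is over 2 libraries only and says that the levels were alike.

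**Figure D5:**
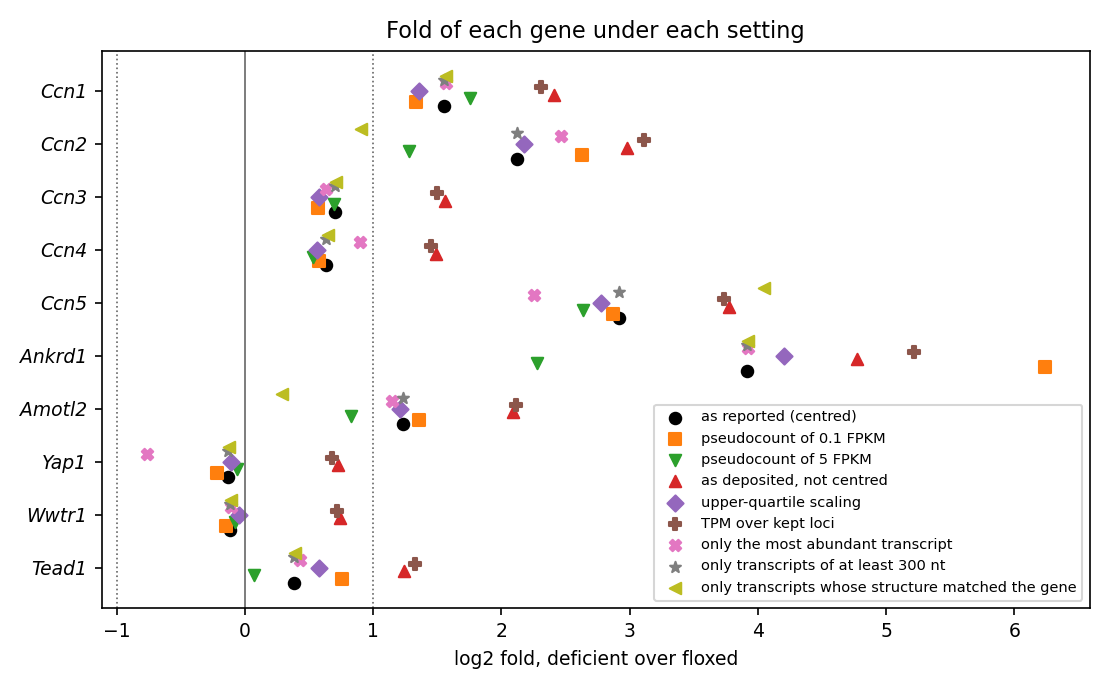
Log2 fold, deficient over floxed, of each gene as reported (black circle, relative to the median kept locus) and under 8 other settings, of which as deposited, upper-quartile scaling and TPM are not centred on the median locus; dotted lines mark 2-fold. Ankrd1, Ccn5 and Ccn1 stay to the right of the upper line in all 9, Ccn2 falls left of it when only matched transcripts are counted and Amotl2 falls left of it there and with a pseudocount of 5 FPKM, and Yap1 and Wwtr1 are positive only as deposited and with TPM.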

How the data were processed

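The authors deposited, for each of the 2 libraries, FPKM per assembled transcript with lower and upper bounds and coverage, written by Cufflinks per the file headers and body. The build mm9, TopHat2 2.0.5, and version 2.0.2 of Cufflinks and of Cuffdiff come from the submitters' processing notes, which give no order; the sources used here do not give annotation, filters or strand handling. Read counts are unknown, so no counting interval is given.

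Loci carry no symbols. They were named from ordered intron and internal exon lengths (GENCODE M21, same chromosome and strand): 18977 of 25707 loci, of which 17679 by a whole chain, and 0 of 37034 chains matched on a wrong chromosome. FPKM was summed per locus, with a pseudocount of 1 FPKM and a call at 2-fold. No test was possible with 1 library per group. All loci shared the median subtracted. Members, lists and rules were chosen with earlier results of these data known. Named genes were the members, Pparg and, per list, up to 4 genes by fold among those reaching 5 FPKM and, per marker list, up to 4 of the highest FPKM and those listed at 0 in both libraries; Lats1, Lats2, Dlg5, Gadd45b, Nt5e, Tgfb2, Itgb1 and other genes under 1 FPKM were added after their values were seen. The centring and the 2-fold call were tested on simulated data with 1 transcript per locus, and recovery was judged only at higher levels. Naming, summing over transcripts, the choice of matched transcripts and recovery at low levels were not tested in this way. Python 3.11.15 with numpy 2.4.6, pandas 2.3.3 and matplotlib 3.10.9 was used. Alternatives were other pseudocounts, filters, scalings, fold limits and transcript choices; the one on matched transcripts was added after seeing the data.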

Additional observations from a re-analysis of the deposited data

How the results depend on the processing

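No paired analysis was possible because there is 1 library per group, and no replicate could be left out. The fold of Ankrd1, Ccn5 and Ccn1 stayed at least 2-fold higher under all 8 settings tried for it. As deposited, not centred, 8 members were at least 2-fold higher, with Ccn3 at 1.56, Ccn4 at 1.49 and Tead1 at 1.24, and Yap1 (0.72) and Wwtr1 (0.74) turned positive. TPM over kept loci also gave 8, with Ccn3 at 1.496, Ccn4 at 1.46, Tead1 at 1.33, Yap1 at 0.68 and Wwtr1 at 0.72. Those settings leave the shift of the median locus in place: 4478 and 4426 of all kept loci were then at least 2-fold higher, against 1093 when centred, and 487 and 584 lower, against 1240. No filter on FPKM gave 8 members higher, since the median taken off was then 0.05, with 4166 loci higher and 519 lower. At 4-fold 3 members were higher, with 159 loci higher and 413 lower, and at 1.5-fold 2331 and 2172. With a pseudocount of 5 FPKM 4 were, as Amotl2 was at 0.83, with 905 loci higher and 423 lower; with 0.1 FPKM 5 were, with 1695 loci higher and 1710 lower. With only matched transcripts 3 were, as Ccn2 was at 0.91 and Amotl2 at 0.29, with 1116 loci (10.5%) higher. That setting kept the pseudocount of 1 FPKM, which lowers the folds of forms that were under 1 FPKM in the floxed library.

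List counts moved as follows. As deposited, with TPM and with no filter alike, 5 CCN genes, 2 coactivator, TEAD and VGLL genes, 4 Hippo genes, 12 targets and 3 receptors were higher and 0 of each list lower. With a pseudocount of 5 FPKM, 0 coactivator, TEAD and VGLL genes and 0 Hippo genes were higher or lower, and 0 targets and 0 receptors lower. With 0.1 FPKM 5 Hippo genes were lower. At 1.5-fold 5 CCN genes, 4 Hippo genes and 3 receptors were higher, and 6 Hippo genes, 4 targets and 2 receptors lower. At 4-fold 3 targets were higher, 0 targets and 0 receptors lower, and 0 coactivator, TEAD and VGLL genes and 0 Hippo genes either way. With the most abundant transcript alone 3 Hippo genes and 1 receptor were higher. Of all 10650 kept loci, 1383 (13%) were then higher and 1412 lower. Where bounds also had to lie apart, 1 Hippo gene and 0 targets were lower, with 1079 of all kept loci higher and 848 lower. With matched transcripts 0 Hippo genes were higher. The number of fragments behind each value is unknown, which limits what can be said of low members such as Ankrd1 in the floxed library.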
